A study of Mus musculus with 14 samples.

Results

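Cholesterol is built from acetyl-CoA through mevalonate and squalene, and the enzymes of this route are switched on together by the transcription factor SREBP2. SREBP2 is held in the endoplasmic reticulum with its escort Scap by the Insig proteins while sterol is plentiful, and is carried to the Golgi and cut free by the proteases Mbtps1 and Mbtps2 when sterol falls. ACLY and ACSS2 make the cytosolic acetyl-CoA that the route starts from, ACLY from citrate and ACSS2 from acetate, and liver cells are a main site of the whole pathway. The genes described here are 33 named members of this system: 8 enzymes of the mevalonate steps, 12 of the squalene and post-squalene steps, 1 gene of lipoprotein uptake, 6 genes of SREBP2 and its control, 3 of intracellular sterol movement and 3 of sterol storage and efflux. They were taken by symbol from the 24972 deposited gene rows, and all 33 were found. Of these, 32 were among the 12693 genes tested, and Abcg1 was not tested because its mean over the 14 libraries was under 10 normalized counts.

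Poly(A) RNA was measured in mouse hepatocellular carcinoma (HCC) cell lines of 4 genotypes, with 4 libraries of WT, 4 of ACLY KO, 3 of ACSS2 KO and 3 of DKO1, the line that lacks both enzymes. All lines came from tumours induced by diethylnitrosamine in mice with floxed Acly alleles, all received the LentiCRISPR v2 vector and puromycin selection, and all were kept for 24 hours in DMEM with 10% serum before extraction. WT and ACLY KO were bulk populations with the empty vector, and the ACLY KO population went back to a single-cell clone made with adenoviral Cre. ACSS2 KO and DKO1 were each a single-cell clone with a guide against the first exon of Acss2. DKO1 was made from the ACLY KO cells, so it shares their adenoviral Cre treatment and earlier cloning. Cre treatment thus goes with ACLY loss in both lines. In ACLY KO, ACSS2 KO and DKO1 alike, the genotype and the clone thus cannot be told apart. Nothing states that the libraries of a genotype came from separate cultures, and the sequencing experiment was not repeated independently, so that p-values measure only the spread between these libraries. In bulk samples, fewer cells with a transcript and less transcript per cell cannot be told apart.

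The values are deposited as normalized counts. Only 19.1 to 47.1% of low values per library were whole multiples of the value taken for 1 read. Whole reads divided by 1 factor per library thus do not describe them. Their totals ran from 23512975 to 26901953 per library. The depth implied by the value taken for 1 read was 19126851 to 33449485 reads, which is uncertain for the same reason. Acly was at 5461 to 6435 normalized counts in WT, 5542 to 5762 for ACSS2 KO, 965 to 1084 for ACLY KO and 931 to 956 for DKO1, so its order followed the labels. Acss2 was at 224 to 252 in WT, 127 to 135 for ACSS2 KO, 660 to 787 for ACLY KO and 455 to 578 for DKO1. Its transcript was thus more abundant in DKO1 than in WT, and since a guide need not remove the transcript, its level is no check of that label. The epithelial liver markers Krt8 and Krt18 were abundant (means of 14750 to 27537 over the genotypes), whereas the other 8 genes of the hepatocyte list were low. Of these, Serpina1a, Apoa1 and Cps1 were at or near 0, with means of at most 1.30, Ttr and Trf had means of at most 31.7, Alb had means of 11.3 to 134, and Afp of 34.3 to 210. Hnf4a, a transcription factor of hepatocytes, had a mean of 172 in WT and of 22.4 to 39.8 in the knockout lines. The summed leukocyte list of 5 genes was at most 131 in any library. The summed endothelial list of 4 genes was at 18.6 to 28.3 in WT, 77.1 to 92.3 for ACLY KO, 10.5 to 18.3 for ACSS2 KO and 40.2 to 51.2 for DKO1. Pecam1 made up most of it in ACLY KO (mean of 61.7, against 7.51 in WT) and in DKO1 (37.7). The summed list of 5 fibroblast or stellate markers was highest in ACLY KO, at 2504 to 2906 against 544 to 650 in WT, with 1363 to 1418 for ACSS2 KO and 777 to 808 for DKO1. Col1a1 made up most of it in ACLY KO (mean of 2454, against 428 in WT), and Dcn most of it in ACSS2 KO (820 against 154). The part of these markers in the results was not tested.

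Before the comparisons, 5 upstream stretches are shown, since SREBP2 is known to act on these genes together with NF-Y and Sp1. They were chosen as the promoter with a match to the SREBP motif (Hmgcs1), 3 enzymes that were highest in DKO1 (Mvd, Idi1 and Cyp51) and an enzyme that was lowest in DKO1 (Tm7sf2). Each is the 200 bases before the RefSeq start, written 5′ to 3′ on the gene's strand, with build GRCm38.p6. Capitals mark matches on either strand to TCACNCCAC, a form of the SREBP site, and to CCAAT, the core of the NF-Y site, which reads ATTGG on the other strand.
Hmgcs1, chr13:119690151-119690350, plus strand: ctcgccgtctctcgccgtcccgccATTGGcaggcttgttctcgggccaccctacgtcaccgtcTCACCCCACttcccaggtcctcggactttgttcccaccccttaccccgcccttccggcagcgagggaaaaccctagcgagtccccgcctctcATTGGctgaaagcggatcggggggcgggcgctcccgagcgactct
Mvd, chr8:122443423-122443622, minus strand: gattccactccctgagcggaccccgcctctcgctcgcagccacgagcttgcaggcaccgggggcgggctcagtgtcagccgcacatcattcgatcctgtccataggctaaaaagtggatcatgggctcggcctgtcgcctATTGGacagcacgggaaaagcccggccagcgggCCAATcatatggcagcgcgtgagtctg
Idi1, chr13:8885406-8885605, plus strand: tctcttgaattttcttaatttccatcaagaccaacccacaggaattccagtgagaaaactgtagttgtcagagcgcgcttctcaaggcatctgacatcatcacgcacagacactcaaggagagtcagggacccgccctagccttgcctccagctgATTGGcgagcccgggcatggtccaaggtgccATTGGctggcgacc
Cyp51, chr5:4104698-4104897, minus strand: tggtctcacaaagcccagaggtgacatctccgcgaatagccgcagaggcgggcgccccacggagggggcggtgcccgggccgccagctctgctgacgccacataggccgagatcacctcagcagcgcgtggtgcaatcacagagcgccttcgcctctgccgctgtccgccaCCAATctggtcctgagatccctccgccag
Tm7sf2, chr19:6067851-6068050, minus strand: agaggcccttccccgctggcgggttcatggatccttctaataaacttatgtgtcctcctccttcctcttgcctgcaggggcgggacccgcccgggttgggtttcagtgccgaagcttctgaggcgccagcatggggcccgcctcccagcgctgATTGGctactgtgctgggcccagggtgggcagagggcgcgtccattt

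RefSeq windows from 250 bases before to 50 after the start were found for 27 of the 33 members, and Fdps, Fdft1, Sqle, Stard4, Npc1 and Abcg1 had none. Some genes have more than 1 window, and a gene was counted once if any of its windows held the motif. TCACNCCAC was found for 1 of the 27 members (3.7%, Hmgcs1) against 1.4% of 9980 tested genes. CCAAT was found for 22 of 27 (81.5%) against 43.5%, among them all 10 squalene and post-squalene enzymes with a window, 6 of 7 mevalonate enzymes and 3 of 6 SREBP2 control genes. GGGCGG, the core of the Sp1 site, was found for 24 of 27 (88.9%) against 68.9%. The motifs do not overlap one another in sequence, both strands were searched, and a match describes letters only: CCAAT stands in the window of Tm7sf2, which was lowest in DKO1, as in those of Mvd and Idi1, which were highest there.

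Loss of ACSS2 alone was asked first, in cells that still hold ACLY. Biosynthetic enzymes fell: 10 of the 20 were lower in ACSS2 KO than in WT and 0 were higher, and 19 of the 20 had a log2 fold change below 0, with a median of -0.45. Over all genes tested, 11% were lower and 15% higher at the same limit (adjusted p under 0.05 in limma), and the median was 0.00093. Of the 32 members tested, 11 were lower and 3 higher. The lower enzymes were 5 of the 8 mevalonate steps (Acat2, Hmgcs1, Mvk, Mvd and Idi1) and 5 of the 12 later steps (Sqle, Lss, Cyp51, Msmo1 and Sc5d). When every library was scaled to the same total, the calls of Acat2 (adjusted p = 0.099), Lss (0.060) and Sc5d (0.20) were lost, which left 7 of the 20 enzymes lower and 0 higher, against 6.43% and 20.2% of all genes.

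Idi1, the isomerase that makes the allylic isoprenoid unit, was at 6805, 7784, 7276 and 7144 normalized counts in WT and 4972, 4728 and 4694 in ACSS2 KO. The groups did not overlap, and the log2 fold change was -0.59 ± 0.06 (SE, adjusted p = 1.1e-05). Sqle, which oxidizes squalene in a rate-limiting step, was at 6485, 6493, 6593 and 6572 in WT and 4767, 4941 and 4810 in ACSS2 KO (log2 fold change -0.43 ± 0.05, adjusted p = 5e-05). Its WT libraries lay close together, and all 3 ACSS2 KO libraries lay well below them. Hmgcs1, which adds a further acetyl-CoA to the product of Acat2, was at 8634, 9208, 9488 and 8868 in WT and 6478, 6373 and 6409 in ACSS2 KO (log2 fold change -0.49 ± 0.07, adjusted p = 0.00017). Mvd, the decarboxylase that makes isopentenyl diphosphate, fell by 0.50 ± 0.12 on the log2 scale (adjusted p = 0.0065), from a mean of 1369 ± 79.6 (SD, n = 4) to 965 ± 15.5 (SD, n = 3). The call of Acat2 (-0.27, adjusted p = 0.013) was lost without ACSS2 KO replicate 2 (0.057), and that of Mvk (-0.48, 0.030) without WT replicate 1 or 2 or any ACSS2 KO replicate, with adjusted p up to 0.095.

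Several enzymes missed the limit in this comparison, with values of -0.51 for Pmvk (adjusted p = 0.076), -0.57 for Fdps (0.053) and -0.50 for Hsd17b7 (0.054) on the log2 scale. All 3 genes stood apart in DKO1 replicate 4, which is in neither group but enters the shared variance estimate. Without that library 16 of the 20 enzymes were lower and 0 higher, against 18.8% lower and 21.4% higher over all genes. Without it and WT replicate 2, 16 were lower and 0 higher, against 23.6% and 24.5%. Ggps1, which makes the geranylgeranyl unit for protein prenylation and so lies on a branch away from sterol, was at 0.03 (95% interval -0.11 to 0.18). Fdft1, the squalene synthase, was at -0.04 (-0.23 to 0.15).

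Loss of ACSS2 in cells that already lack ACLY was then asked by comparing DKO1 with ACLY KO. Biosynthetic enzymes rose here: 12 of the 20 were higher in DKO1 and 2 were lower, with a median log2 fold change of 0.31. Over all genes, 14.3% were higher and 13.6% lower, with a median of -0.01. Of the 32 members, 18 were higher and 4 lower. The risers held 6 of the 8 mevalonate steps (Acat2, Pmvk, Mvd, Idi1, Fdps and Ggps1) and 6 of the 12 later steps (Fdft1, Sqle, Cyp51, Msmo1, Nsdhl and Sc5d). With equal library totals, the calls of Cyp51 (adjusted p = 0.060), Nsdhl (0.052) and Sc5d (0.068) were lost, which left 9 of the 20 enzymes higher and 2 lower, against 12.6% and 13.6% of all genes.

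Acat2, the cytosolic thiolase that joins the first acetyl-CoA units, was at 5658, 4541, 4991 and 5162 normalized counts in ACLY KO and 7652, 7753 and 8585 in DKO1, a log2 fold change of 0.65 ± 0.07 (SE, adjusted p = 2.7e-05). Sqle was at 8016, 7209, 7915 and 7707 in ACLY KO and 11570, 11964 and 11409 in DKO1 (0.60 ± 0.05, adjusted p = 4.1e-06). The lowest DKO1 library lay above the highest ACLY KO library for both genes. Idi1 was at 5561, 4995, 5366 and 5259 in ACLY KO and 10229, 9970 and 10292 in DKO1 (0.94 ± 0.06, adjusted p = 2.5e-07). Fdps, which makes farnesyl diphosphate, was at 6438, 5753, 6017 and 6391 in ACLY KO and 8962, 9160 and 16730 in DKO1 (0.86 ± 0.20, adjusted p = 0.0065), with replicate 4 far above the other DKO1 libraries and no overlap between the groups. Cyp51, which removes a methyl group from lanosterol, was higher by 0.22 ± 0.08 (adjusted p = 0.048), a call that was lost when any of 12 libraries was left out in turn, with adjusted p up to 0.13.

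The enzymes that did not rise were Hmgcs1 (-0.05, 95% interval -0.20 to 0.10), Mvk (0.22, -0.10 to 0.54), Lss (0.09, -0.19 to 0.36), Hsd17b7 (-0.003, -0.38 to 0.38), Ebp (0.19, -0.09 to 0.47) and Dhcr7 (0.09, -0.16 to 0.34). Without DKO1 replicate 4, Lss was at 0.29 (adjusted p = 0.012), Hsd17b7 at 0.29 (0.042) and Dhcr7 at 0.26 (0.016), while Mvk was at -0.01 and Hmgcs1 at 0.03. In that fit 14 of the 20 enzymes were higher and 2 lower, against 16.2% and 15.3% of all genes.

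**Figure D1:**
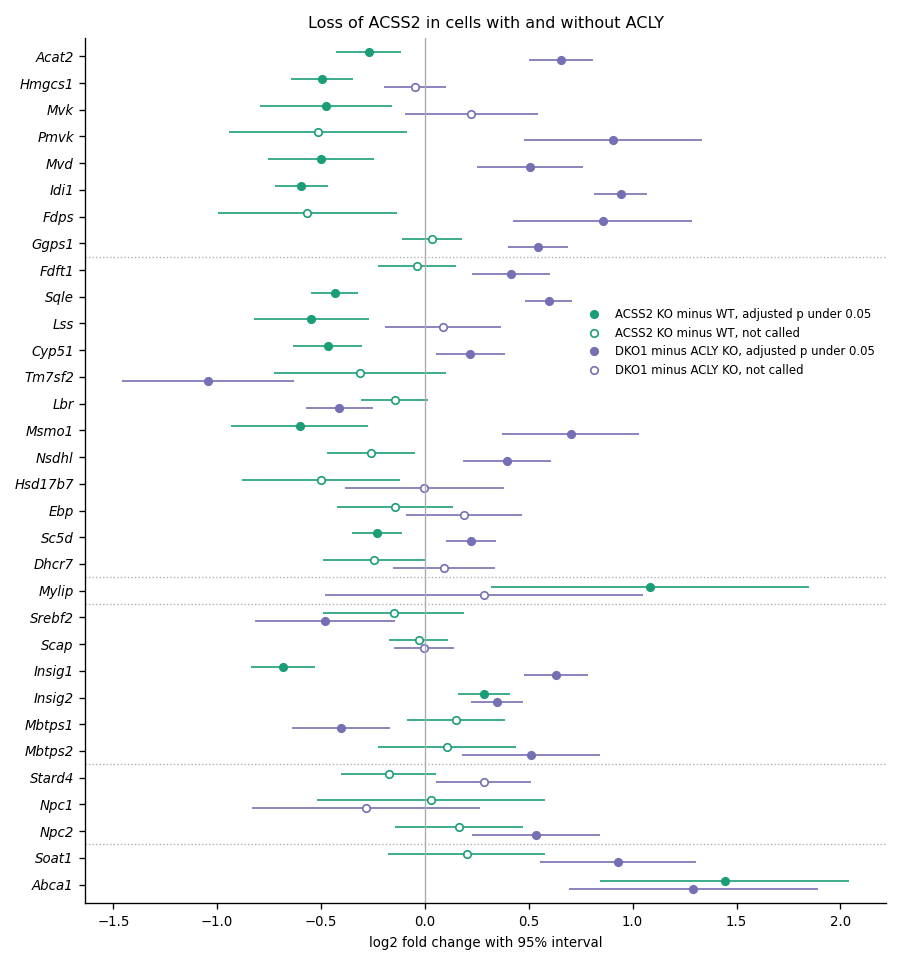
Log2 fold change (x axis) of the 32 tested members for loss of ACSS2 in cells with ACLY (ACSS2 KO minus WT, green) and without it (DKO1 minus ACLY KO, purple). Lines are 95% intervals, filled points have an adjusted p under 0.05, and dotted lines part the role groups. Most enzyme points are left of 0 in green and right of 0 in purple, Tm7sf2 and Lbr are left of 0 in both, and Insig2 and Abca1 are right of 0 in both.

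The difference between these effects was tested directly as an interaction, the change on losing ACSS2 in ACLY KO cells minus that in WT cells. It was above 0 for 15 of the 20 enzymes and below 0 for 0 at an adjusted p under 0.05, and it was above 0 for all 8 mevalonate steps and 7 of the 12 later steps. The background was 12% of genes above 0 and 15.1% below. The median was 0.97 over the mevalonate enzymes, 0.48 over the later enzymes and -0.01 over all genes. Of the 32 members, 18 were above 0, and Mbtps1 was below 0.

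The interaction was 1.54 ± 0.08 (SE) for Idi1, 1.42 ± 0.28 for Pmvk, 1.42 ± 0.28 for Fdps, 1.30 ± 0.22 for Msmo1, 1.03 ± 0.07 for Sqle and 1.01 ± 0.17 for Mvd on the log2 scale, with adjusted p between 6.9e-08 for Idi1 and 0.0023 for Fdps. Msmo1, which begins removal of methyl groups after Cyp51, was at 7337, 9948, 7387 and 6878 normalized counts in WT, 5423, 4854 and 5152 for ACSS2 KO, 6233, 6037, 6143 and 6608 for ACLY KO, and 8562, 9000 and 13651 for DKO1. Its ACSS2 KO libraries lay under all others, and its DKO1 replicate 4 and WT replicate 2 stood above their groups. DKO1 replicate 4 also lay far above the other DKO1 libraries for Fdps and for Pmvk (1201.5, 1300.7 and 2251.6 normalized counts in DKO1). The sizes given for Pmvk, Fdps and Msmo1 thus lean on that library, although their interactions stayed called whichever library was left out. The later enzymes that did not pass were Tm7sf2 (-0.73, adjusted p = 0.063), Lbr (-0.27, 0.081), Hsd17b7 (0.50, 0.16), Ebp (0.33, 0.20) and Dhcr7 (0.34, 0.14). Without DKO1 replicate 4, 17 of the 20 enzymes were above 0 and 0 below, with Hsd17b7 at 0.79 (adjusted p = 0.0005) and Dhcr7 at 0.51 (0.0015), against 15.6% and 18% of all genes. The calls of Lss and Mvk were lost when certain single libraries were left out (ACSS2 KO replicate 1 or DKO1 replicate 3 for Lss, ACSS2 KO replicate 1 or 2 for Mvk), with adjusted p up to 0.057. When every library was scaled to the same total, the median of all genes moved to -0.16, and the interactions of Hmgcs1 (0.29, adjusted p = 0.12) and Lss (0.48, 0.14) were no longer called, while that of Tm7sf2 (-0.88, 0.029) was called below 0.

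Loss of ACLY alone gave no common direction among the enzymes with the values as deposited. Of the 20 enzymes, 5 were higher in ACLY KO than in WT (Acat2, Mvd, Sqle, Nsdhl and Sc5d) and 4 lower (Idi1, Ggps1, Fdft1 and Tm7sf2), with a median log2 fold change of -0.02. Over all genes, 23.8% were higher and 24.7% lower. Of the 32 members, 8 were higher and 6 lower. Without DKO1 replicate 4, 12 were higher and 10 lower against 30.1% and 31.5% of all genes, although that library is in neither group compared. Scaling every library to the same total moved the members' split to 12 higher and 4 lower and that of all genes to 30.1% and 18.5%. Among the enzymes, Cyp51 (adjusted p = 0.0013), Dhcr7 (0.032) and Lss (0.034) were then also called higher. The falls of Fdft1 (0.080) and Tm7sf2 (0.082) were lost, which left Idi1 and Ggps1 as the lower enzymes. Quantile normalization gave 11 and 5 members, against 24% and 23.5% of all genes.

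Mvd moved most among the enzymes, from 1424, 1449, 1307 and 1294 normalized counts in WT to 2723, 2084, 2412 and 2353 in ACLY KO (log2 fold change 0.80 ± 0.11, SE, adjusted p = 4.3e-05), and the groups did not overlap. Sc5d, a desaturase near the end of the pathway, was at 2172, 2243, 2363 and 2196 in WT and 3170, 2867, 3027 and 2884 in ACLY KO (0.41 ± 0.05, adjusted p = 1.9e-05). Nsdhl, which acts after Msmo1, was higher by 0.52 ± 0.09 (adjusted p = 0.00034). Idi1 was lower by contrast, at -0.45 ± 0.06 (adjusted p = 1.7e-05). The fall of Fdft1 (-0.25, adjusted p = 0.022) was lost without WT replicate 2 or ACLY KO replicate 2 or 3, and that of Tm7sf2 (-0.51, 0.030) was lost without WT replicate 1 or 2 or ACLY KO replicate 2, 3 or 4, with adjusted p up to 0.089.

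Loss of both enzymes was compared with WT and with ACSS2 KO. In DKO1 against WT, 13 of the 20 enzymes were higher and 3 lower, with a median log2 fold change of 0.39, and 19 of the 32 members were higher and 5 lower, against 27.9% and 28.1% of all genes. In DKO1 against ACSS2 KO, 15 of the 20 enzymes were higher and 2 lower, with a median of 0.86, and 18 of the 32 members were higher and 4 lower, against 25.9% and 27.8%. These comparisons share libraries with those above and with each other, so their counts are not separate evidence. In DKO1 against ACSS2 KO the mevalonate enzymes had a median of 1.17, with 7 of 8 called, and the later enzymes a median of 0.73.

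Mvd was at 975, 973 and 947 normalized counts in ACSS2 KO and 2981, 3053 and 4247 in DKO1, a log2 fold change of 1.81 ± 0.13 (SE, adjusted p = 7.7e-08), equal to 3.50-fold. Acat2 was at 3188, 3064 and 3151 in ACSS2 KO, under all 3 DKO1 libraries given above (1.35 ± 0.08, adjusted p = 1.3e-08). Against WT, Acat2 was higher by 1.08 ± 0.07 (adjusted p = 6.8e-08), and Sqle by 0.83 ± 0.05 (3.8e-08). Against ACSS2 KO, the calls of Mvk (0.49, adjusted p = 0.019) and Hsd17b7 (0.56, 0.023) were lost without ACSS2 KO replicate 2 for the former and without ACSS2 KO replicate 1 or 4 or DKO1 replicate 1 or 3 for the latter, with adjusted p up to 0.090. Hmgcs1 was the exception among the mevalonate enzymes, at 8412, 8302 and 7134 in DKO1, lower than in WT by a log2 of -0.19 ± 0.07 (adjusted p = 0.033). That call was lost without WT replicate 2 or 3 or without DKO1 replicate 4, with adjusted p up to 0.10, and with equal library totals (0.28). The call of Msmo1 against WT (0.38, adjusted p = 0.048) was lost when any of 11 libraries was left out in turn, most of all without DKO1 replicate 4 (0.17, adjusted p = 0.22). Without the same library Hsd17b7 was higher than in WT (0.35, adjusted p = 0.0074). Lss and Dhcr7 lost theirs without DKO1 replicate 1 or 3, and Ggps1 without 9 libraries left out in turn, with adjusted p up to 0.12.

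**Figure D2:**
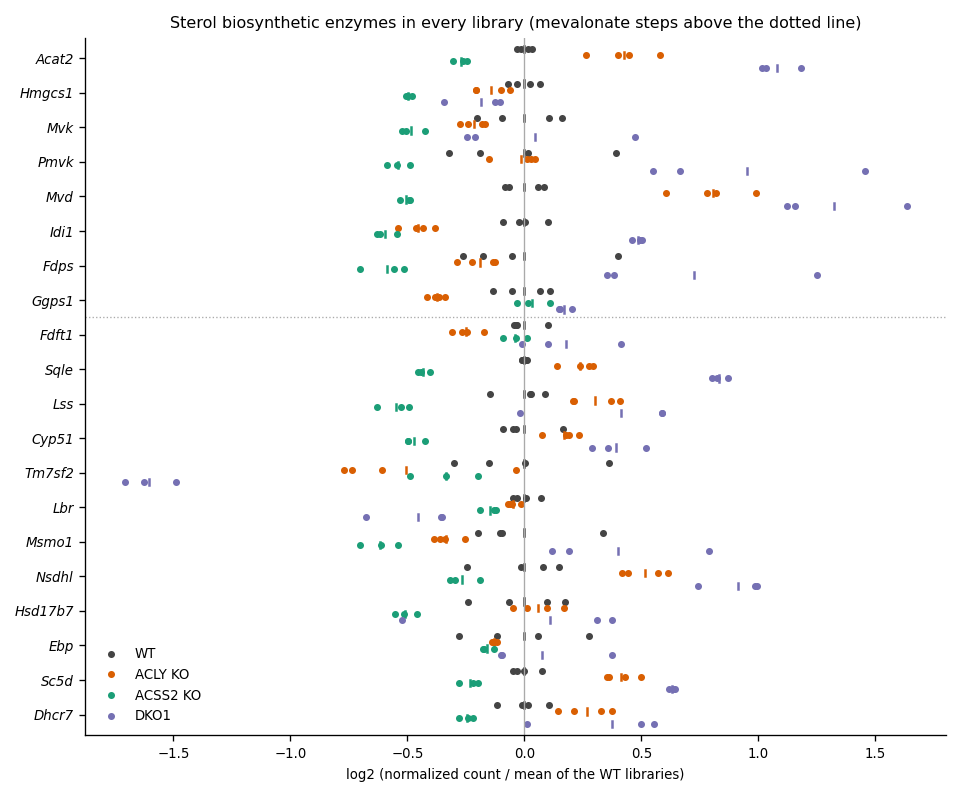
Log2 of the normalized count over the mean of the WT libraries (x axis) for the 20 biosynthetic enzymes, with a point for each library, a tick for each genotype mean, and mevalonate steps above the dotted line. The 3 ACSS2 KO libraries are left of 0 for most enzymes, DKO1 libraries are right of 0 for most, and Tm7sf2 and Lbr have DKO1 at the far left.

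The order of the genotype means gives the same picture without a test. DKO1 was highest for 17 of the 20 enzymes and ACSS2 KO lowest for 16, with both for 15 of 20 (75%), against 15.8% of all genes tested. The neighbours in this order were often close: 11 of the 20 enzymes were not called between ACLY KO and WT. The exceptions to DKO1 being highest were Hmgcs1, Tm7sf2 and Lbr. Summed over the 20 enzymes, normalized counts were 69577 to 79148 in WT, 69113 to 76952 for ACLY KO, 53280 to 55066 for ACSS2 KO and 94177 to 109135 for DKO1. As a share of the library these were means of 0.282% for WT, 0.306% for ACLY KO, 0.226% for ACSS2 KO and 0.403% for DKO1, and the ranges of ACSS2 KO and DKO1 overlapped no other genotype.

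Per kilobase of transcript, the mean levels of the enzymes in WT spanned from 29.3 normalized counts for Tm7sf2 to 2657 for Msmo1, with Hmgcs1 at 2613, Cyp51 at 2432, Idi1 at 2396 and Fdps at 2378. In DKO1 the highest means were Fdps at 3934, Acat2 at 3554, Msmo1 at 3504 and Idi1 at 3358. The places of Fdps and Msmo1 in this order lean on DKO1 replicate 4. It was at 1.85 times the mean of the other DKO1 libraries for Fdps and 1.55 times for Msmo1. Lengths are those of the longest annotated transcript of each gene. Hmgcs1, near the top of this order in WT, was at 2295 per kilobase in DKO1. The kinase Mvk was low in both genotypes, at 394 and 407.

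The reductases Tm7sf2 and Lbr, which can both carry out the step after Cyp51, went against the other enzymes. Tm7sf2 was at 90.5, 116, 73.3 and 81.2 normalized counts in WT, 88.2, 53.0, 59.1 and 54.1 for ACLY KO, 78.8, 71.6 and 64.3 for ACSS2 KO, and 29.3, 32.2 and 27.6 for DKO1. All DKO1 libraries lay below all others, with log2 fold changes of -1.55 ± 0.19 (SE) against WT (adjusted p = 1.6e-05) and -1.05 ± 0.19 against ACLY KO (0.0014). Lbr, which is also a nuclear membrane protein that binds lamins, was at 4279, 4333, 4445 and 4650 in WT, 4378, 4272, 4243 and 4218 for ACLY KO, 3880, 4050 and 4074 for ACSS2 KO, and 3468, 3458 and 2772 for DKO1. It fell in DKO1 by 0.46 ± 0.07 against WT (adjusted p = 0.00017) and by 0.41 ± 0.07 against ACLY KO (0.0013). Lbr was the far more abundant of the pair, with 1261 against 29.3 normalized counts per kilobase in WT.

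Among the genes that hold and release SREBP2, Insig1 moved with the enzymes. Insig1, which retains SREBP2 in the endoplasmic reticulum and is itself a known SREBP2 target, was at 3790, 4023, 3924 and 3950 normalized counts in WT, 5275, 4332, 4614 and 4563 for ACLY KO, 2454, 2552 and 2321 for ACSS2 KO, and 7598, 7387 and 6810 for DKO1. No library of a genotype overlapped any library of another. Its log2 fold change was -0.68 ± 0.07 (SE, adjusted p = 1.5e-05) in ACSS2 KO against WT, 0.26 ± 0.07 (0.0058) in ACLY KO against WT and 0.63 ± 0.07 (3.4e-05) in DKO1 against ACLY KO, and the interaction was 1.32 ± 0.10 (1.3e-06). Insig2, its paralog with the same retaining role, was at 783, 859, 856 and 817 in WT and 784, 810, 797 and 825 for ACLY KO, and at 1032, 949 and 1045 for ACSS2 KO and 1021, 1001 and 1046 for DKO1. It was thus higher wherever ACSS2 was lost, by 0.28 ± 0.06 against WT (adjusted p = 0.0028) and by 0.35 ± 0.06 against ACLY KO (0.00074). Its interaction was 0.06 (95% interval -0.11 to 0.24). The 47 other tested genes within 10 Mb of Insig2 had a median of 0.21 in ACSS2 KO against WT, with 31.9% of them called higher and 40.4% above Insig2, and a median of -0.02 in DKO1 against ACLY KO. The part of this shift in its value was not tested.

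Srebf2, which encodes SREBP2, was at 7283, 5344, 7192 and 7617 normalized counts in WT, 7679, 7124, 7927 and 6893 for ACLY KO, 5910, 6348 and 6111 for ACSS2 KO, and 6056, 6296 and 3904 for DKO1. DKO1 lay below ACLY KO in every library (log2 fold change -0.48 ± 0.16, SE, adjusted p = 0.036), the comparison in which 12 of the 20 enzymes were higher. That call was lost without DKO1 replicate 4 (-0.26, adjusted p = 0.11) and without ACLY KO replicate 1, 2 or 3, but was present without both DKO1 replicate 4 and WT replicate 2. The escort Scap was at 1231 to 1427 in WT, 1234 to 1331 for ACLY KO, 1263 to 1358 for ACSS2 KO and 1220 to 1330 for DKO1, so the groups overlapped and no comparison was called, with a log2 fold change of -0.004 (95% interval -0.15 to 0.14) in DKO1 against ACLY KO.

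The proteases moved in opposite directions in that comparison. Mbtps1 was at 5604, 4760, 5678 and 5784 normalized counts in WT, 6829, 6750, 7011 and 6276 for ACLY KO, 5889, 5866 and 6373 for ACSS2 KO, and 5541, 5762 and 4100 for DKO1, lower in DKO1 than in ACLY KO by a log2 of -0.40 ± 0.11 (SE, adjusted p = 0.015). Its interaction of -0.55 (adjusted p = 0.018) was lost without ACSS2 KO replicate 4 (0.052), and its rise in ACLY KO against WT (0.30, 0.024) without WT replicate 2 or ACLY KO replicate 1, 2 or 3. Mbtps2 was at 1052, 1022, 1263 and 1272 in WT, 1121, 1164, 1178 and 1044 for ACLY KO, 1158, 1285 and 1261 for ACSS2 KO, and 1935, 1862 and 1144 for DKO1. DKO1 replicate 4 lay within the other genotypes and the remaining DKO1 libraries far above them. The log2 fold change against ACLY KO was 0.51 ± 0.15 (adjusted p = 0.026), and it was lost without DKO1 replicate 1 or 3 or ACLY KO replicate 1 or 4. Against WT it was 0.48 ± 0.15 (adjusted p = 0.017), lost without DKO1 replicate 1 or 3.

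**Figure D3:**
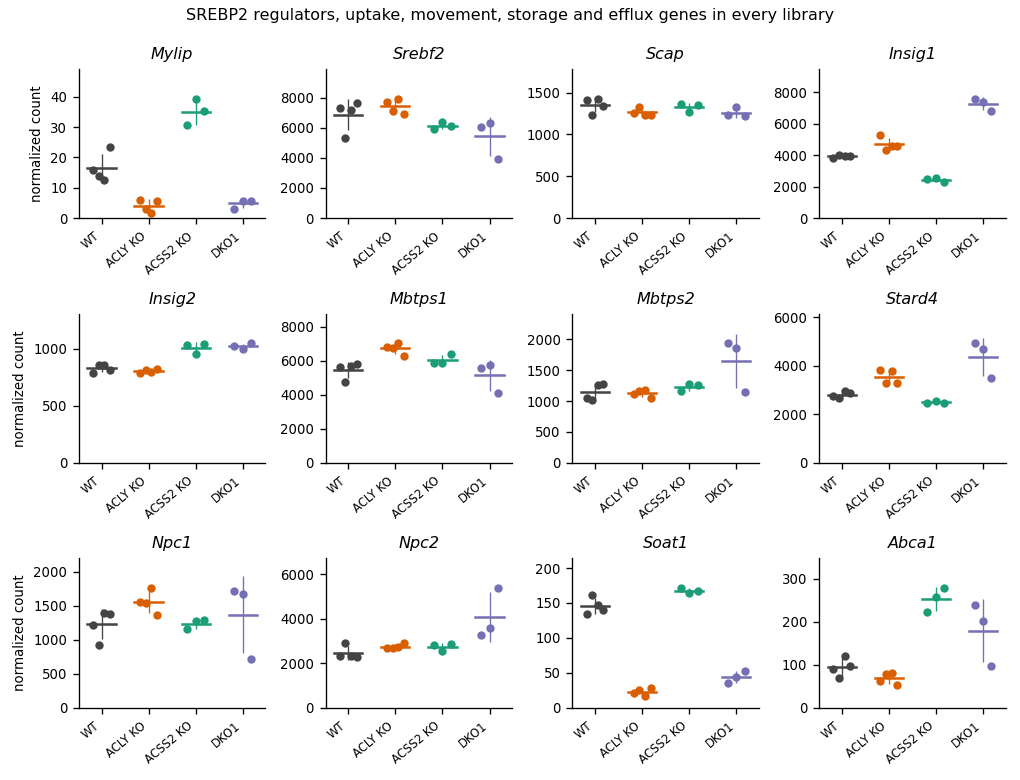
Normalized count (y axis, from 0) in each library of the 12 tested members that are not biosynthetic enzymes, by genotype. Points are libraries, horizontal lines genotype means and vertical lines 1 SD. Insig1 separates all 4 genotypes, Insig2 is higher in ACSS2 KO and DKO1, Soat1 is low in ACLY KO and DKO1, and DKO1 replicate 4 stands apart for Mbtps2, Npc1, Npc2 and Abca1.

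Uptake was represented by Mylip, the ubiquitin ligase that limits uptake of low-density lipoprotein. It was a low transcript, at 16.0, 13.99, 12.4 and 23.3 normalized counts in WT, 5.87, 2.83, 1.71 and 5.76 for ACLY KO, 30.6, 39.4 and 35.4 for ACSS2 KO, and 3.08, 5.76 and 5.75 for DKO1. ACSS2 KO lay above WT and the ACLY-deficient genotypes lay below it, with no overlap. The log2 fold change was 1.08 ± 0.35 (SE, adjusted p = 0.039) for ACSS2 KO, -1.86 ± 0.33 (0.00038) for ACLY KO and -1.57 ± 0.35 (0.0021) for DKO1, each against WT and on the log2(value + 1) scale, which understates changes at so low a level. The call in ACSS2 KO was lost when any of 6 WT or ACSS2 KO libraries was left out, with adjusted p up to 0.13.

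Of the genes of intracellular sterol movement, Stard4, which carries sterol between membranes and is a known SREBP2 target, was at 2754, 2654, 2961 and 2863 normalized counts in WT, 3835, 3305, 3783 and 3293 for ACLY KO, 2467, 2530 and 2463 for ACSS2 KO, and 4918, 4680 and 3483 for DKO1. Its genotype means stood in the same order as those of Insig1, and it was higher in DKO1 than in WT by a log2 of 0.62 ± 0.11 (SE, adjusted p = 0.00026). Its interaction of 0.46 (adjusted p = 0.038) was lost when any of 10 libraries was left out in turn (up to 0.084), and in DKO1 against ACLY KO it was at 0.28 (0.064), or 0.44 (0.00052) without DKO1 replicate 4. Npc1 and Npc2 together export cholesterol from the lysosome. Npc2 was higher in DKO1 than in WT (0.70 ± 0.14, adjusted p = 0.00096) and than in ACLY KO (0.54 ± 0.14, 0.013), at 3261, 3588 and 5365 normalized counts in DKO1. Npc1 was at 1718, 1675 and 714 in DKO1 and 919 to 1396 in WT, and was not called in any comparison. Without DKO1 replicate 4 it was higher in DKO1 than in WT (0.49, adjusted p = 0.0099) and than in ACSS2 KO (0.46, 0.019).

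Storage and efflux genes differed in which genotypes they set apart. Soat1, which esterifies cholesterol for storage, was at 134, 161, 147 and 140 normalized counts in WT, 21.5, 25.5, 16.3 and 28.3 for ACLY KO, 171, 164 and 167 for ACSS2 KO, and 35.6, 44.6 and 52.4 for DKO1. The ACLY-deficient genotypes lay far below the others, with log2 fold changes of -2.64 ± 0.16 (SE, adjusted p = 3e-08) for ACLY KO and -1.71 ± 0.17 (3e-06) for DKO1 against WT, and DKO1 was higher than ACLY KO by 0.93 ± 0.17 (0.0016). Its interaction of 0.73 (adjusted p = 0.043) was lost when any of 11 libraries was left out in turn, with adjusted p up to 0.089. Abca1, which exports cholesterol to apolipoproteins and, like Mylip, is a known target of the liver X receptors, was at 89.9, 68.2, 120 and 97.4 in WT, 63.1, 78.4, 79.9 and 53.1 for ACLY KO, 223, 258 and 278 for ACSS2 KO, and 239, 202 and 96.5 for DKO1. It was higher with ACSS2 lost, by 1.44 ± 0.28 in ACSS2 KO against WT (adjusted p = 0.0018) and by 1.29 ± 0.28 in DKO1 against ACLY KO (0.0039), and DKO1 replicate 4 lay within the WT range. Its call in DKO1 against WT (0.85, adjusted p = 0.019) was lost without DKO1 replicate 1 or 3. Abcg1, the partner exporter that was not tested, was at 0.745 to 8.03 in all libraries, with the highest mean in DKO1 (6.67 ± 1.67, SD, n = 3).

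Libraries stood apart in ways that touched many members. DKO1 replicate 4 was the highest of the 3 DKO1 libraries for 14 of the 32 tested members and the lowest for 17. Across 12577 genes its deviation from its group fell with transcript length (Spearman rho -0.669, a description over genes of a single library), and WT replicate 2 (-0.582), ACLY KO replicate 4 (-0.568) and ACSS2 KO replicate 1 (-0.522) leaned the same way. Against the mean of DKO1 replicates 1 and 3, its log2 difference was 0.88 for Fdps, 0.85 for Pmvk (whose transcript is 1194 bases long), -1.25 for Npc1 and -1.18 for Abca1 (10262 bases). With the length trend of each library removed, no called member changed sign, and Lss was called higher in DKO1 against ACLY KO (0.26, adjusted p = 0.0017) while Nsdhl lost that call (0.32, 0.10).

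**Figure D4:**
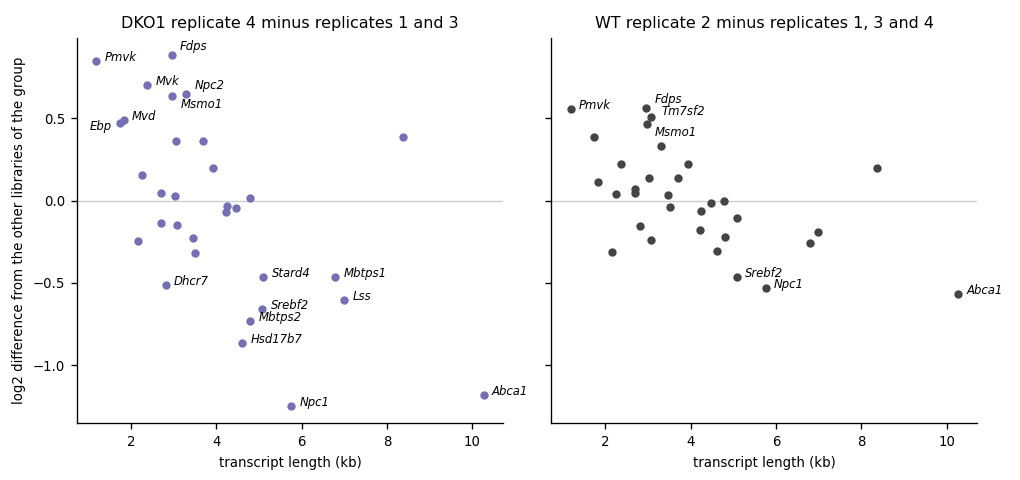
Log2 difference (y axis) of DKO1 replicate 4 from the other DKO1 libraries (left) and of WT replicate 2 from the other WT libraries (right), against transcript length in kilobases (x axis), with a point for each of the 32 tested members. Pmvk, the shortest of these transcripts, lies above 0 and Abca1, the longest, below 0 in both panels, while the short Nsdhl lies below 0 and the long Soat1 above 0 in both.

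Some members lie in chromosome regions whose genes shifted together. Idi1 stands at chr13:8885606, and the 45 other tested genes within 10 Mb of it had a median log2 fold change of -0.63 in ACLY KO against WT and 0.58 in DKO1 against ACLY KO, against -0.45 and 0.94 for Idi1 itself. In the former comparison 33.3% of these neighbours had a higher value than Idi1, and in the latter 11.1% did. In ACSS2 KO against WT and DKO1 against ACSS2 KO the neighbours were near 0 (0.01 and -0.07), whereas Idi1 was at -0.59 and 1.08. Ggps1, on the same arm, had -0.37 and 0.54 in the comparisons where its 59 neighbours had -0.63 and 0.53, so that it fell less than their median in the former and lay close to it in the latter. Hmgcs1, on the same chromosome at 119690351, had 28 neighbours with medians of -0.03 and -0.12 in these comparisons. Mylip, further along chromosome 13, had -1.86 in ACLY KO against WT where its 88 neighbours had -0.80.

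Other neighbourhoods moved too, in DKO1 and in part already in ACLY KO. The 63 neighbours of Mbtps2 on chromosome X had a median of 0.67 in DKO1 against WT, above the 0.48 of Mbtps2 itself. The 217 neighbours of Tm7sf2 on chromosome 19 had -0.54, against -1.55 for Tm7sf2, and the 47 neighbours of Sqle on chromosome 15 had 0.37, against 0.83. In ACLY KO against WT the neighbours of Tm7sf2 had a median of -0.38, against -0.51 for Tm7sf2, and 55.3% of them were called lower. Those of Sqle had 0.28 there, against 0.24 for Sqle, and 46.8% of them were called higher. The 110 neighbours of Mvd had 0.23 in ACLY KO against WT, against 0.80 for Mvd, with 38.2% called higher. Those of Mbtps1 had 0.21, against 0.30 for Mbtps1, with 39.6% called higher. Those of Stard4 had 0.21, against 0.34 for Stard4, with 38.7% called higher. Msmo1 had 121 neighbours with a median of 0.43 in DKO1 against ACLY KO, where it was at 0.70. In the same comparison the 233 neighbours of Srebf2 had -0.21, against -0.48 for Srebf2, with 31.8% of them called lower. The 149 neighbours of Mbtps1 had -0.18, against -0.40 for Mbtps1, with 32.9% called lower. In contrast, the 153 neighbours of Insig1 had medians between -0.06 and 0.08 in all 6 comparisons. The part of such shifts in the values of these members was not tested.

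**Figure D5:**
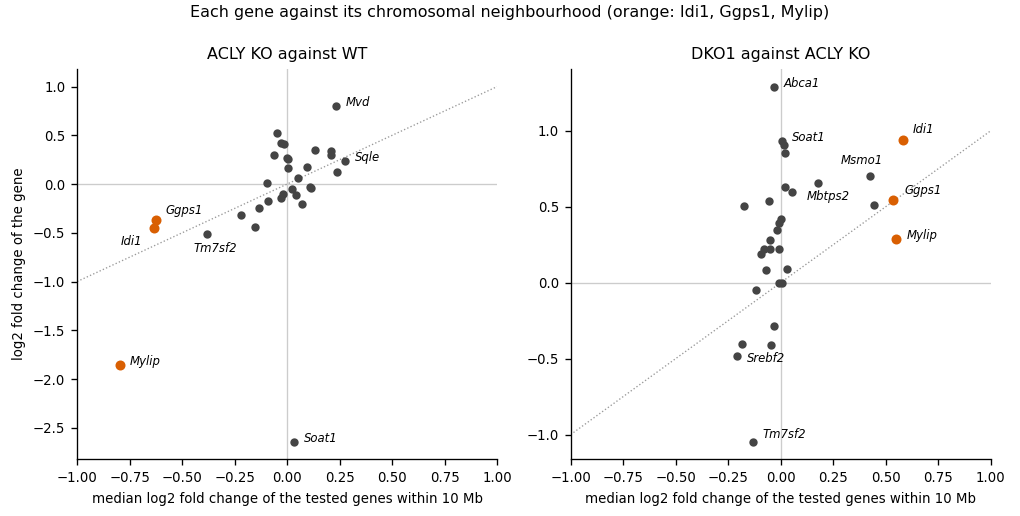
Log2 fold change of each of the 32 tested members (y axis) against the median log2 fold change of the other tested genes within 10 Mb (x axis), for ACLY KO against WT (left) and DKO1 against ACLY KO (right). The dotted line marks equal values. Orange points are Idi1, Ggps1 and Mylip, 3 of the 4 members on chromosome 13, whose neighbourhoods are near -0.6 to -0.8 on the left and above 0.5 on the right. Hmgcs1, the other member on chromosome 13, is not coloured, and its neighbourhood is near 0 on both sides.

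Groups that did not overlap were counted as well. In the 5 comparisons of genotype pairs, 16 of 32 members did not overlap in ACLY KO against WT (53.1% of all genes), 22 in ACSS2 KO against WT (42.8%), 18 in DKO1 against WT (47.6%), 22 in DKO1 against ACLY KO (34.5%) and 24 in DKO1 against ACSS2 KO (58.2%). The share of members exceeded that of all genes by most in DKO1 against ACLY KO and in ACSS2 KO against WT.

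Genes around the pathway were counted in the same comparisons. Of 9 genes for endoplasmic reticulum degradation and sensing of sterol enzymes, 0 were higher and 4 lower in DKO1 against ACLY KO (14.3% and 13.6% of all genes), 0 higher and 1 lower in ACSS2 KO against WT (15% and 11%), and 4 higher and 3 lower in DKO1 against ACSS2 KO (25.9% and 27.8%). Erlin1 and Erlin2, which form a scaffold for that degradation, fell in DKO1 against ACLY KO by 0.39 ± 0.06 (SE, adjusted p = 0.0003) and by 0.47 ± 0.09 (0.0013). Of 13 genes that use isoprenoids, 2 were higher and 2 lower in DKO1 against ACLY KO, with Rabggta (0.36, adjusted p = 0.017) and Icmt (0.38, 0.024) higher and Pdss2 lower (-0.37, 0.028), and 0 were higher and 3 lower in ACSS2 KO against WT. In DKO1 against ACSS2 KO 6 of these were higher and 3 lower. Of 19 genes for sterol handling and oxysterols, 13 were tested, with 1 higher and 2 lower in DKO1 against ACLY KO and 6 higher and 0 lower in ACSS2 KO against WT, and with 0 higher and 8 lower in DKO1 against ACSS2 KO. The counts of 2 and 2 of 13 and of 1 and 2 of 13 are near the shares of all genes. Among these, Lrp1, an endocytic lipoprotein receptor, had means of 1579 in WT, 1360 for ACLY KO, 5389 for ACSS2 KO and 773 for DKO1, Scarb1, which takes up cholesterol from high-density lipoprotein, had 1004, 206, 848 and 255, and Osbp, a sterol transfer protein, had 4611, 2681, 4173 and 2271.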

How the data were processed

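Poly(A) libraries were sequenced by the authors as 75-base single-end reads, mapped with STAR to GRCm38 and normalized with DESeq2, for which the submitters' processing notes give version 1.0.1. The annotation and the assignment of reads to genes are not given in the sources used here. The deposited signal values are normalized counts: 19.1 to 47.1% of low values per library were whole multiples of the value of 1 read (within 0.01), so whole reads were not recovered, depth is only implied, and no counting intervals were computed. No sample columns were left unused. Date-like symbols (26 of 24972) were left out.

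The study's methods name DESeq2 for differential expression and do not state its model. As the values are not counts, limma 3.58.1 with an intensity trend in R 4.3.3 was fitted on log2(value + 1). It took 12693 genes whose mean reached 10, all 14 libraries and a coefficient per genotype. Fold changes are on that scale. P-values were adjusted by Benjamini-Hochberg over all genes and called under 0.05. The fit was checked on simulated data.

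Members and lists were chosen with earlier results of these data known. All 33 members are named, Acly and Acss2 as label checks, and of each further list the 3 genes with the smallest adjusted p in DKO1 against ACLY KO. Positions and promoters are from RefSeq (GRCm38.p6) and transcript lengths from GENCODE vM21 (GRCm38). Alternatives covered the added constant, the filter, scaling, the length trend, the replicate number, left-out libraries, fits of only the groups compared, the variance trend and call limits.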

Additional observations from a re-analysis of the deposited data

Results flagged for a closer look

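In 66 groups of 4 WT or ACLY KO libraries, 3 had a library far from the others by Dixon's test, where chance flags about 1 in 20. All were WT replicate 2, with 3232 normalized counts of Fdft1 (the others at 2918 to 2948), 9948 of Msmo1 (6878 to 7387) and 2901 of Npc2 (2255 to 2337).

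For 19 members, the change from ACLY KO to DKO1 differed from the change from WT to ACSS2 KO, by the interaction in limma at an adjusted p under 0.05. The interaction was above 0 for 18 members and below 0 for 1, against 12% and 15.1% of all genes. In these lines the genotype and the clone cannot be told apart. Among mevalonate enzymes the log2 difference was 0.93 for Acat2, 0.45 for Hmgcs1, 0.70 for Mvk, 1.42 for Pmvk, 1.01 for Mvd, 1.54 for Idi1, 1.42 for Fdps and 0.51 for Ggps1. Among later enzymes it was 0.45 for Fdft1, 1.03 for Sqle, 0.63 for Lss, 0.69 for Cyp51, 1.30 for Msmo1, 0.65 for Nsdhl and 0.45 for Sc5d. It was also 1.32 for Insig1, 0.46 for Stard4, 0.73 for Soat1 and -0.55 for Mbtps1, the member below 0. Of these, the values of Idi1, Ggps1 and Msmo1 stood beside neighbourhood medians of 0.56, 0.56 and 0.32. Those of Pmvk, Fdps and Mbtps1 stood beside 0.20, 0.21 and -0.20. The median had the opposite sign to the gene for Mvd (-0.19), Fdft1 (-0.22), Sc5d (-0.12) and Soat1 (-0.19), among others. The part of such shifts in the values was not tested.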

How the results depend on the processing

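Of 2963 repeats of called member values under the alternatives, 2792 kept direction and call, 171 lost the call and 0 reversed. The study's limit (absolute log2 fold change over 1.5 and adjusted p under 0.01) left 2 members in ACLY KO against WT, 0 in ACSS2 KO against WT, 3 in DKO1 against WT, 0 in DKO1 against ACLY KO, 4 in DKO1 against ACSS2 KO and 1 in the interaction, since it asks for larger changes. Without DKO1 replicate 4 and WT replicate 2, 23 members were called in ACLY KO against WT and 22 in ACSS2 KO against WT (14 each in the report). In that fit 33.9% of all genes were higher and 35.1% lower in the former and 24.5% and 23.6% in the latter. With only the groups compared in the fit, 16 members were called in DKO1 against WT (24 in the report, of which 8 were lost), 15 in DKO1 against ACLY KO (22, of which 7 were lost), 17 in DKO1 against ACSS2 KO (22, of which 5 were lost) and 18 each in ACLY KO and ACSS2 KO against WT. The shares of all genes higher and lower in these fits were 20% and 20.8%, 9.18% and 8.42%, and 18.1% and 20.4% for DKO1. They were 28.3% and 28.8% in ACLY KO against WT and 18.1% and 13.7% in ACSS2 KO against WT. Leaving out each library gave 11 to 22, 11 to 21, 20 to 25, 19 to 24, 21 to 24 and 15 to 21 calls in the order of the limit above, the 22 without DKO1 replicate 4. Without that library 30.1% of all genes were higher and 31.5% lower in ACLY KO against WT. With the replicate number as a block, the counts were 16, 14, 23, 21, 22 and 18. The shares of all genes higher and lower were then 23.2% and 23.7%, 13.6% and 9.42%, and 26.5% and 26.9% against WT. In the remaining comparisons they were 12.6% and 12%, 25.1% and 27%, and 10.7% and 14.1%. Deviations of libraries that share a number had correlations of -0.431 to 0.446 over 18 pairs. Those of libraries with different numbers had -0.497 to 0.619 over 55 pairs. Since the deviations of many libraries followed transcript length, these values cannot show whether a number marks a shared batch. Equal library totals moved the median of all genes by 0.10 and 0.11 in ACLY KO and ACSS2 KO against WT and by -0.16 in the interaction. The other counts were within 1.5 times those reported. With the depth only implied, low genes such as Mylip and Abcg1 cannot be given a counting error.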
